A study of Homo sapiens with 3 samples.

Results

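The 9 genes described here, FOLH1, STEAP1, STEAP2, CD276, PSCA, DLL3, ERBB2, ERBB3 and CEACAM5, encode cell-surface proteins against which prostate cancer or other solid-tumor therapies are directed. They were taken by name from 33423 genes counted in 3 single-cell libraries, and a gene with no line in a library was set to 0. All 9 were found for VCaP–ENZ48, and 8 each for VCaP parental and LNCaP–ENZ168, where CEACAM5 was missing. VCaP is an established prostate cancer cell line that carries the TMPRSS2–ERG fusion, and LNCaP is another such line. VCaP parental was kept in 0.1% DMSO, the vehicle, and VCaP–ENZ48 in 10 µM enzalutamide (ENZ), both for 48 h. LNCaP–ENZ168 received the same concentration for 168 h. ENZ is a prostate cancer drug that blocks androgen signaling, and all 3 libraries are labelled as sensitive to it. No untreated LNCaP library was analysed here, so line, time and preparation cannot be told apart between LNCaP–ENZ168 and the VCaP libraries.

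Such proteins are exposed on the outside of a tumor cell, where an antibody, a radioligand or an engineered T cell can bind them. FOLH1 is better known as prostate-specific membrane antigen (PSMA), a glutamate carboxypeptidase that is abundant in prostate epithelium and is used for imaging and radioligand therapy. STEAP1 and STEAP2 belong to a family of metalloreductases of the plasma membrane, and their RNA level in prostate tissue is high. DLL3 is a Notch ligand best known from neuroendocrine tumors, and ERBB2 and ERBB3 are receptor tyrosine kinases that signal as a pair.

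With 1 library in each group no difference could be checked against replicates, no test was made, and every interval covers counting error only. The kept cells numbered 997 for VCaP parental, 947 for VCaP–ENZ48 and 944 for LNCaP–ENZ168, with 19515202, 14301287 and 6313283 unique molecular identifiers (UMIs, 1 per captured RNA molecule). A level is given in CPM, the UMIs of a gene in every 1000000 UMIs of its library, and 3 UMIs, the limit that a count of 0 allows, correspond to 0.154, 0.210 and 0.475 CPM. The median cell held 17817, 11224 and 5389 UMIs. Cells called in G1 made up 30.9% of VCaP parental, 88.2% of VCaP–ENZ48 and 76.6% of LNCaP–ENZ168, and mitochondrial RNA 6.24%, 7.49% and 8.94% of UMIs. Every pair of libraries had 1 cell barcode in common. In VCaP parental 860 of the 1000 barcodes ended in the letter N in place of a base, as did 869 in VCaP–ENZ48 and 212 in LNCaP–ENZ168. How this N arose is not given in the sources used here. The luminal epithelial markers KRT8, KRT18, EPCAM, CDH1 and HOXB13 were measured in every library and summed to between 1094 and 1384 CPM, whereas basal, immune and endothelial markers summed to at most 2.06 CPM. Fibroblast markers summed to 21.5, 26.4 and 1.90 CPM, from LUM for the most part in VCaP, and COL1A2, KRT5 and TP63 were at 0 in every library.

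FOLH1 was measured at a higher level in VCaP–ENZ48 than in VCaP parental, and in CPM it was higher again in LNCaP–ENZ168. It was measured at 315 CPM in VCaP parental (exact Poisson 95% interval 307 to 323 CPM), 710 CPM in VCaP–ENZ48 (696 to 724 CPM) and 1009 CPM in LNCaP–ENZ168 (985 to 1034 CPM). These levels rest on 6146, 10155 and 6371 UMIs, and no interval reached that of a neighbour in this order. The order of LNCaP–ENZ168 and VCaP–ENZ48 held for CPM but turned with TMM factors (log2 ratio -0.024) and median-of-ratios factors (-0.043). VCaP–ENZ48 was 2.25-fold above VCaP parental (exact 95% interval 2.18 to 2.33), a log2 ratio of CPM + 1 of 1.17. Of the 7729 genes that averaged at least 10 CPM over the VCaP libraries, 93.6% had a lower ratio. The median of those genes was -0.066.

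The difference in FOLH1 was also described per cell, from the same UMIs. Each cell is then set to a common total, so the shares carry the scaling limits of CPM and are no separate support. Because the libraries differ in depth, each cell was reduced at random to 2000 UMIs before cells with a UMI were counted. FOLH1 was then detected in 40.1% of 997 VCaP parental cells (exact Clopper-Pearson 95% interval 37.1 to 43.2%), 67.9% of 917 VCaP–ENZ48 cells (64.8 to 71.0%) and 82.1% of 943 LNCaP–ENZ168 cells (79.5 to 84.5%). Without this step the shares were 93.7%, 93.9% and 97.4%, so at full depth the VCaP libraries could not be separated by detection alone. Cells with 3 or more FOLH1 UMIs among the 2000 made up 5.32%, 18.6% and 31.3%. Each library held a single cell line, so there was no cell type lacking FOLH1 from which background from free RNA could be read.

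**Figure D1:**
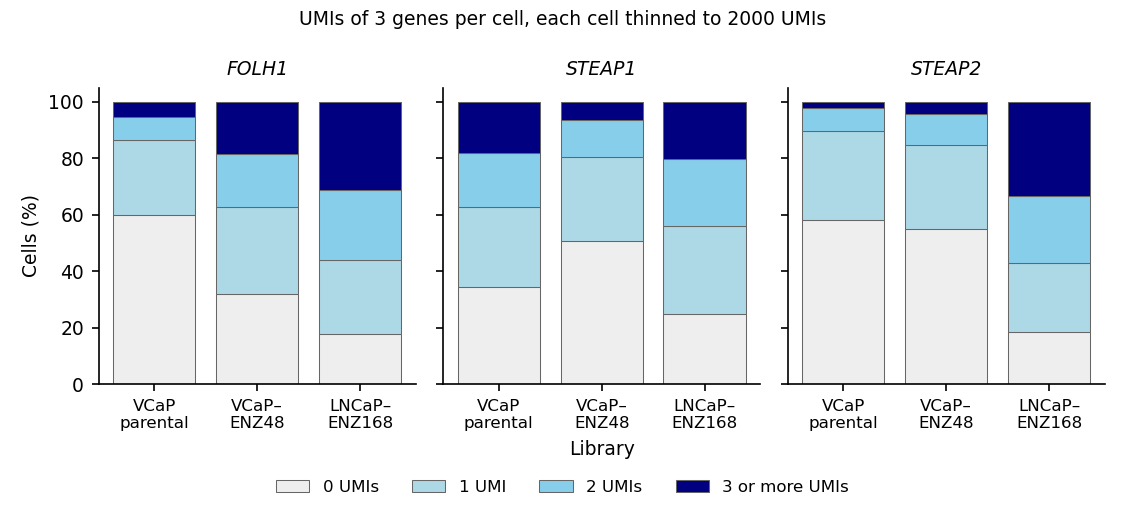
Share of cells (vertical axis, %) with 0, 1, 2, or 3 or more UMIs of FOLH1, STEAP1 and STEAP2 in each of the 3 libraries, after every cell was thinned to 2000 UMIs. The FOLH1 bar loses its pale 0-UMI part from VCaP parental to VCaP–ENZ48 to LNCaP–ENZ168 (59.9%, 32.1% and 17.9% of cells), that of STEAP1 is largest in VCaP–ENZ48, and that of STEAP2 is similar in both VCaP libraries.

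The FOLH1 level varied little with cell depth but did vary with the cell cycle. Over 4 equal bins of cells by depth it ran from 304 to 349 CPM in VCaP parental, from 665 to 788 CPM in VCaP–ENZ48 and from 958 to 1090 CPM in LNCaP–ENZ168. In VCaP parental it was 402 CPM in cells called G1, 313 CPM in S and 250 CPM in G2/M. In VCaP–ENZ48 the values were 722, 679 and 441 CPM, so in each phase VCaP–ENZ48 was above VCaP parental. The VCaP–ENZ48 values rest on 809, 86 and 22 cells, so that of G2/M is the least certain (371 to 521 CPM). LNCaP–ENZ168 had 1091 CPM in G1, 766 CPM in S and 780 CPM in G2/M. In cells called G1, which were more frequent in VCaP–ENZ48, the log2 ratio between the VCaP libraries was 0.84, below the 2-fold limit of 1.

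FOLH1 lies at chr11:49145092-49208638 on the minus strand (GRCh38, Gencode). Of the 50-base words in its transcripts, 20.5% also occur in its near-copy FOLH1B, so counts between the pair are uncertain, although FOLH1B had only 213, 262 and 9 UMIs. NAALAD2, a glutamate carboxypeptidase related to FOLH1 that shares none of these words, moved in the same direction in VCaP, with 222 CPM in VCaP parental and 767 CPM in VCaP–ENZ48 (log2 ratio 1.78). In LNCaP–ENZ168 NAALAD2 was at 8.08 CPM, far below both VCaP libraries. GGH, which trims the glutamate tail of stored folates, went from 133 to 42.9 CPM (log2 ratio -1.61). Of 11 relatives and folate uptake genes, 9 were found and 7 had a mean of at least 10 CPM. Among those 7, NAALAD2 was past 2-fold higher, GGH past 2-fold lower and 5 lay between, with a median log2 ratio of 0.47. Of all 7729 genes at this level 8.19% were past 2-fold higher and 6.77% lower. NAALADL2, another relative, was at 42.7 and 74.3 CPM.

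STEAP1 and STEAP2 are neighbours on chromosome 7, at chr7:90154456-90164829 and chr7:90167590-90238137 on the plus strand. In CPM over all cells their levels differed in direction between the VCaP libraries. STEAP1, which lacks the reductase domain of its relatives, was at 656 CPM in VCaP parental (645 to 667 CPM), 369 CPM in VCaP–ENZ48 (359 to 379 CPM) and 729 CPM in LNCaP–ENZ168 (708 to 751 CPM). It was therefore lowest in VCaP–ENZ48, 1.78-fold below VCaP parental (1.72 to 1.84), a log2 ratio of -0.83. STEAP2, which reduces iron and copper, was at 275 CPM in VCaP parental (268 to 282 CPM), 331 CPM in VCaP–ENZ48 (322 to 341 CPM) and 998 CPM in LNCaP–ENZ168 (973 to 1023 CPM). Its VCaP levels lay close together, with a log2 ratio of 0.27, and the sign of that ratio depended on the scaling and on the cell cycle phase, as given further on.

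The promoters of this pair are printed because the genes are adjacent and their ratios had opposite signs in CPM over all cells. With TMM or median-of-ratios factors and in G1 cells both ratios were negative, so a difference in direction is not established. The sequences are from RefSeq on GRCh38.p14, from 250 bases before to 50 bases after a transcription start, and are read on the plus strand. STEAP1 has 1 start in this set, within the stretch chr7:90154219-90154518. STEAP2 has 2, within the stretches chr7:90211490-90211789 and chr7:90213570-90213869. Both STEAP2 stretches lie inside the gene as placed above, so the sequence at its upstream end is not printed. Capitals mark a match to a searched motif on either strand.
STEAP1: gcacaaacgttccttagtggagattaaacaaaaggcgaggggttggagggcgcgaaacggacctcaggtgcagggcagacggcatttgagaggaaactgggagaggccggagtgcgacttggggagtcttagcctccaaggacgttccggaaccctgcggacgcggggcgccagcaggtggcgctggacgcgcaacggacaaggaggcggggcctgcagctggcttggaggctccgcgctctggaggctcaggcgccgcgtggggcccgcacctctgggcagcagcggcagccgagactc
STEAP2, the first start: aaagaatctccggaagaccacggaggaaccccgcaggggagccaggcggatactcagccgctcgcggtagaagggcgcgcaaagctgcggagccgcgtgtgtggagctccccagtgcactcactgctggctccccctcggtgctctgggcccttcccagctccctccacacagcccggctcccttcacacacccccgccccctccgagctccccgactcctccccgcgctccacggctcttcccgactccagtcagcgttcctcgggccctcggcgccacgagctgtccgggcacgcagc
STEAP2, the second start: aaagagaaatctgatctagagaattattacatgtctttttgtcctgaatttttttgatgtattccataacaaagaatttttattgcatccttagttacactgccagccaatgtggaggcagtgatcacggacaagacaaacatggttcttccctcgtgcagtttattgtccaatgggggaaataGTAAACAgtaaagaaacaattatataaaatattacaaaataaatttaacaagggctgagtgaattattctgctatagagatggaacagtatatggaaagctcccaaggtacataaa

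The motifs searched were AGAACA (an androgen response half-site), TGTTTAC (forkhead) and CAGGAAG (ETS), on both strands, and none of the 3 contains another. Among 35116 RefSeq promoters of this length, 14.8% held AGAACA, 3.42% TGTTTAC and 12.7% CAGGAAG. The second STEAP2 start held 1 forkhead match, on the reverse strand, and STEAP1 and the first STEAP2 start held none of the motifs. G and C made up 66.7% of the STEAP1 promoter, 70.3% of the first and 33.7% of the second STEAP2 promoter. Of the 9 genes 5 were matched in this table, namely STEAP1, STEAP2, CD276, ERBB2 and CEACAM5. The promoters of CEACAM5 and ERBB2 each held 1 AGAACA.

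Detection per cell followed the levels of STEAP1 and STEAP2. Among cells thinned to 2000 UMIs, STEAP1 was detected in 65.7% of VCaP parental (62.7 to 68.6%), 49.2% of VCaP–ENZ48 (45.9 to 52.5%) and 707 of 943 LNCaP–ENZ168 cells (72.1 to 77.7%). STEAP2 was detected in 41.9% (38.8 to 45.1%), 45.1% (41.9 to 48.4%) and 81.7% (79.0 to 84.1%), and its intervals overlapped between the VCaP libraries. At full depth the shares were 98.9%, 87.2% and 96.3% for STEAP1 and 95.5%, 84.8% and 98.0% for STEAP2. The full-depth share of STEAP2 was thus lower in VCaP–ENZ48, against its CPM, and no order is read from it.

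Both genes had their lowest level in G2/M in each library, although only 22 VCaP–ENZ48 cells were called G2/M. In VCaP parental STEAP1 was at 747 CPM in G1, 771 CPM in S and 473 CPM in G2/M, and in VCaP–ENZ48 at 367, 415 and 230 CPM. STEAP1 was therefore lower in VCaP–ENZ48 in every phase, with a log2 ratio of -1.02 in G1 cells. STEAP2 was at 363, 274 and 208 CPM in the phases of VCaP parental and at 341, 284 and 164 CPM in those of VCaP–ENZ48. Its log2 ratio in G1 cells was -0.089, while over all cells it was positive.

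**Figure D2:**
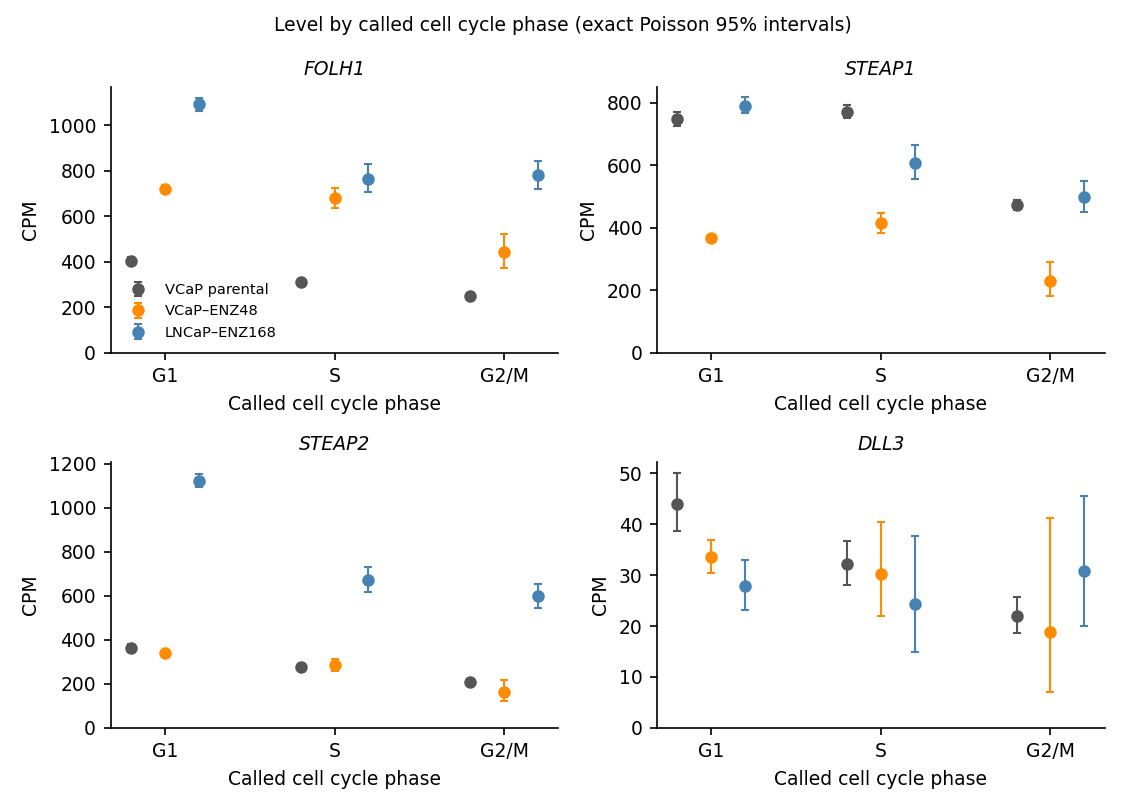
Level in CPM (vertical axes, from 0) of FOLH1, STEAP1, STEAP2 and DLL3 in cells called G1, S or G2/M in each library, with exact Poisson 95% intervals. FOLH1 in VCaP–ENZ48 lies above VCaP parental in each phase (722 against 402 CPM in G1), STEAP1 lies below it, and the STEAP2 points of both VCaP libraries nearly coincide. The G2/M points of VCaP–ENZ48 rest on 22 cells.

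Among 9 relatives and iron uptake genes, all found, 4 had a mean of at least 10 CPM, of which 0 were past 2-fold higher and 1 lower, with a median log2 ratio of 0.012. The lower gene was TFRC, the transferrin receptor, at 156 CPM in VCaP parental and 54.2 CPM in VCaP–ENZ48. The ferritin chains FTL and FTH1, which store iron, were at 1024 and 1489 CPM and at 932 and 850 CPM. STEAP1 shares 22.5% of its 50-base words with STEAP1B, which had 9, 15 and 3 UMIs, and none with STEAP2. STEAP2-AS1 runs on the opposite strand across both genes and had 7, 10 and 9 UMIs.

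CD276 (B7-H3), an immune checkpoint ligand of the B7 family on chromosome 15, was at a similar level in all libraries. It was at 35.7 CPM in VCaP parental (33.1 to 38.4 CPM), 42.6 CPM in VCaP–ENZ48 (39.3 to 46.1 CPM) and 40.1 CPM in LNCaP–ENZ168 (35.3 to 45.3 CPM). The VCaP log2 ratio was 0.25, with an exact interval of the CPM ratio from 0.097 to 0.41, and thinned cells had a UMI in 7.02%, 5.89% and 7.74% of cases. At full depth 46.5%, 37.1% and 21.5% of cells had a UMI, an order that followed library depth. None of the other B7 ligands reached a mean of 10 CPM in VCaP. Of 9 listed, 6 were found, led by NCR3LG1 with 3.07 and 4.41 CPM, ICOSLG with 0.10 and 0.35 CPM and CD274 (PD-L1) with 0.41 and 0.14 CPM. In LNCaP–ENZ168 CD274 was at 21.2 CPM.

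PSCA, a small glycolipid-anchored protein of the LY6 family, was rare in every library. It had 27 UMIs in VCaP parental (1.38 CPM, 0.91 to 2.01 CPM), 52 in VCaP–ENZ48 (3.64 CPM, 2.72 to 4.77 CPM) and 24 in LNCaP–ENZ168 (3.80 CPM, 2.44 to 5.66 CPM). The VCaP libraries differed 2.63-fold (1.62 to 4.35), which gave a log2 ratio of CPM + 1 of 0.96. The added 1 CPM draws this value below the plain ratio, as it does for every gene of a few CPM. Among thinned cells 0.401%, 0.763% and 0.636% had a UMI, too few to order the libraries. JRK overlaps PSCA on the opposite strand and had 73, 130 and 58 UMIs, and whether counting used the strand is not given in the sources used here. Of 7 other LY6 and uPAR relatives 6 were found and 3 had a mean of at least 10 CPM. Of these LY6E was past 2-fold higher (45.4 and 100.1 CPM), while CD59, which protects cells from complement, was at 66.5 and 53.6 CPM and LYPD3 at 10.1 and 14.5 CPM.

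DLL3 was at the same level in both VCaP libraries within counting error, with 31.8 CPM in VCaP parental (29.3 to 34.4 CPM) and 32.9 CPM in VCaP–ENZ48 (30.0 to 36.0 CPM). In LNCaP–ENZ168 it was at 27.7 CPM (23.8 to 32.1 CPM). The VCaP log2 ratio was 0.050, with an exact interval from -0.12 to 0.23. A DLL3 UMI was found in 54 of 997, 55 of 917 and 51 of 943 thinned cells. Within phases DLL3 was less even, since VCaP parental had 44.1 CPM in G1, 32.2 CPM in S and 21.9 CPM in G2/M. VCaP–ENZ48 was lower in each phase, with 33.5, 30.2 and 18.9 CPM, the last from 6 UMIs. The intervals of the VCaP libraries overlapped in S and G2/M but not in G1. The log2 ratio in G1 cells was -0.39. The neuroendocrine markers CHGA, SYP, CHGB and SCG2 summed to 111 CPM in VCaP parental, 259 CPM in VCaP–ENZ48 and 2.06 CPM in LNCaP–ENZ168, in which CHGA was at 0. In VCaP–ENZ48 3 of these 4, all but SYP, were past 2-fold higher, where 8.19% of all genes of at least 10 CPM were. SCG2, at 5.74 CPM in VCaP parental and 17.9 CPM in VCaP–ENZ48, reached that mean through VCaP–ENZ48 alone, where it was high. The count of 3 was thus partly fixed by the minimum. CHGA was close to the 2-fold limit, with a log2 ratio of 1.05. Of the 5 luminal markers 2 were also past 2-fold higher, KRT8 (1.08) and HOXB13 (1.00). These marker counts are in CPM over all cells and were not recomputed with the TMM and median-of-ratios factors described further on. Both factors lower such ratios by more than CHGA, KRT8 and HOXB13 exceed the 2-fold limit. The part of the neuroendocrine markers in the DLL3 values was not tested.

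The rest of the Notch pathway was low. Of 13 listed ligands, receptors and targets, all were found and only the receptor NOTCH2 had a mean of at least 10 CPM, with 12.4 CPM in VCaP parental and 7.83 CPM in VCaP–ENZ48. The target HES1 was at 9.74 and 4.34 CPM, and the ligand JAG2 at 5.38 and 8.39 CPM.

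ERBB2 (HER2) and ERBB3 (HER3) stood apart as the members with the largest difference between LNCaP–ENZ168 and VCaP–ENZ48. ERBB2 was at 2.05 CPM in VCaP parental (1.46 to 2.79 CPM), 5.24 CPM in VCaP–ENZ48 (4.12 to 6.57 CPM) and 57.8 CPM in LNCaP–ENZ168 (52.0 to 64.1 CPM). ERBB3, which has little kinase activity of its own, was at 4.30 CPM (3.43 to 5.33 CPM), 6.22 CPM (5.00 to 7.66 CPM) and 70.6 CPM (64.2 to 77.5 CPM). LNCaP–ENZ168 was 11.0-fold above VCaP–ENZ48 for ERBB2 (8.58 to 14.3) and 11.4-fold for ERBB3 (9.02 to 14.4). In thinned cells ERBB2 was detected in 0.602%, 0.654% and 9.76% and ERBB3 in 1.20%, 1.64% and 14.3%, so in both genes LNCaP–ENZ168 stood clear of the VCaP libraries.

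Between the VCaP libraries the change of this pair was small in UMIs. ERBB2 had 40 and 75 UMIs, a 2.56-fold difference (1.72 to 3.86) and a log2 ratio of 1.03, and ERBB3 had 84 and 89 UMIs, 1.45-fold (1.06 to 1.97) with a log2 ratio of 0.45. The shares of thinned cells with an ERBB2 UMI did not show this difference at the depth used. MIEN1 and PGAP3 overlap ERBB2 on the opposite strand, and MIEN1 had far more UMIs (1572, 1197 and 1462). Of 20 further ERBB receptors, ligands and regulators, 18 were found and 6 had a mean of at least 10 CPM. None of these 6 was past 2-fold in either direction, and their median log2 ratio was -0.17. They included the adaptors GRB2 (158 and 135 CPM) and SHC1 (25.5 and 20.3 CPM) and the ubiquitin ligase RNF41 (39.5 and 36.5 CPM), which acts on ERBB3.

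CEACAM5, an adhesion molecule of gut and other epithelia, was at the limit of detection. It had 0 UMIs in VCaP parental and LNCaP–ENZ168 and 3 UMIs in 3 cells of VCaP–ENZ48, so no ratio is given. At full depth 0 of 997 VCaP parental cells had a UMI, which allows a share of up to 0.301% by the limit of 3 counts (exact Clopper-Pearson upper bound 0.369%). In VCaP–ENZ48 3 of 947 cells had one, a share of 0.317% (0.065 to 0.923%). In LNCaP–ENZ168 0 of 944 cells did, which allows up to 0.318% (exact upper bound 0.390%). These limits are on cells with a UMI, not on cells that express the gene. Of 8 CEACAM relatives 4 were found, led by CEACAM19 with 13 and 12 UMIs in the VCaP libraries, and CEACAM1 had 1 and 3.

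**Figure D3:**
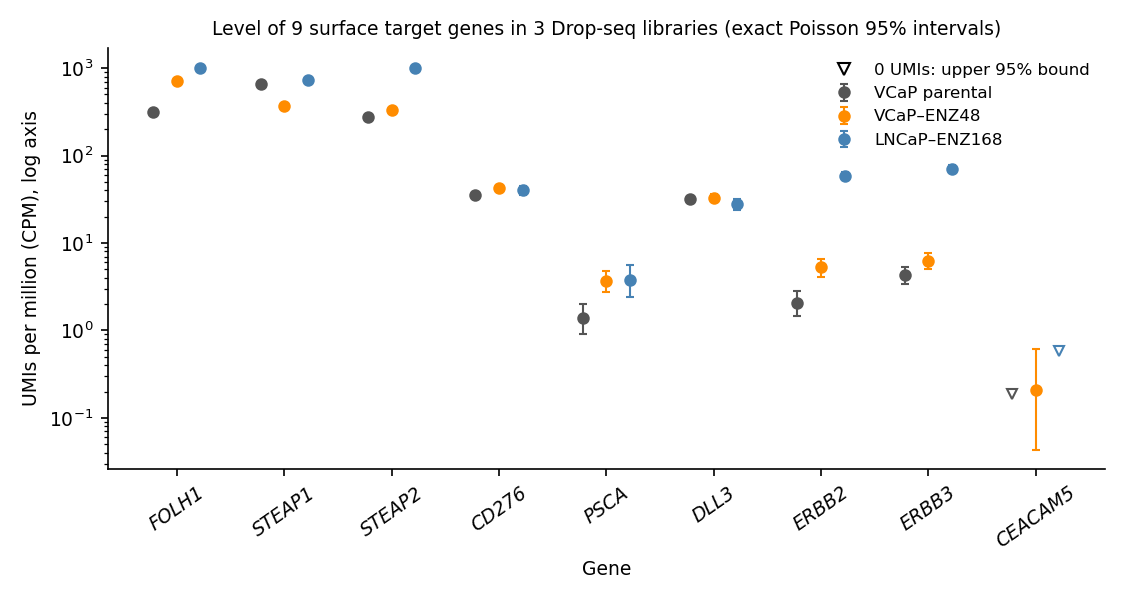
Level of the 9 genes (CPM, log axis) in VCaP parental, VCaP–ENZ48 and LNCaP–ENZ168, with exact Poisson 95% intervals, which are smaller than the points for abundant genes. Open triangles give the upper bound where 0 UMIs were counted, and ERBB2 and ERBB3 show LNCaP–ENZ168 (57.8 and 70.6 CPM) far above both VCaP points.

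Read together across the VCaP libraries, 5 of the 9 members averaged at least 10 CPM. Of these 1 (FOLH1) was past 2-fold higher, where 8.19% of all such genes were, and 0 were past 2-fold lower, where 6.77% were. Among the 8 genes with a ratio, FOLH1 and ERBB2 were past 2-fold higher on the CPM + 1 scale, and of all genes that averaged at least 1 CPM 12.8% were. PSCA, 2.63-fold higher as a plain ratio, stayed at 0.96 on that scale, and with 0.5 CPM added in place of 1 it made the count 3. The median log2 ratio was 0.25 over the 5 genes and 0.36 over the 8. The exact interval of the ratio was above 0 for 6 of the 8, below 0 for STEAP1 and included 0 for DLL3. Of 23 other surface therapy targets, 20 were found and 10 had a mean of at least 10 CPM. Of these the serine protease HPN (23.6 and 78.4 CPM) was past 2-fold higher and TMEFF2 (176 and 12.4 CPM) lower. The most abundant of them were SLC39A6, a zinc transporter, at 466 and 344 CPM, EPCAM at 428 and 325 CPM and CD24 at 215 and 395 CPM.

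The scale on which libraries are set side by side moved these ratios. TMM factors lowered the VCaP log2 ratios of genes of at least 10 CPM by about 0.29 and median-of-ratios factors by about 0.45, and those of genes of a few CPM by less. Under these scalings the log2 ratio of FOLH1 was 0.88 and 0.72 and that of STEAP1 -1.12 and -1.28. STEAP2, CD276 and DLL3 were then lower in VCaP–ENZ48 rather than higher, and ERBB2 was at 0.81 and 0.69. The split of all genes past 2-fold also turned, from 8.19% higher and 6.77% lower to 5.19% and 13.0% with TMM factors and to 3.80% and 19.1% with median-of-ratios factors. A scaling moves abundant genes alike, so FOLH1 was above the median of all genes, and STEAP1 below it, under each of these.

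**Figure D4:**
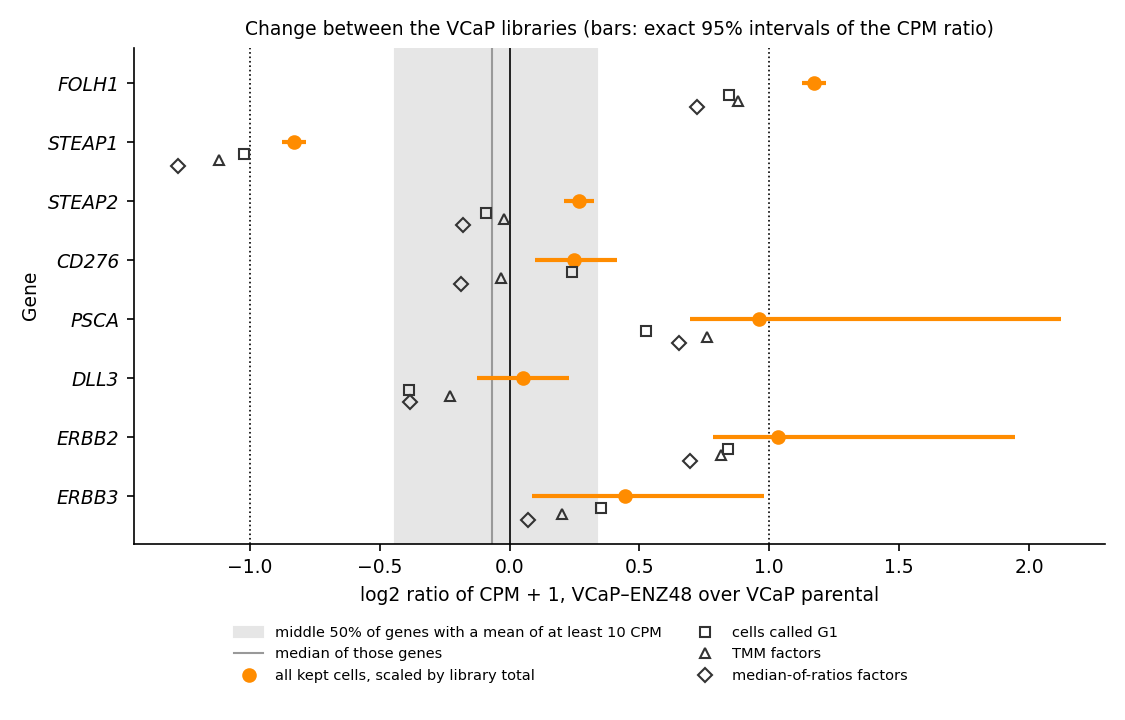
Log2 ratio of CPM + 1, VCaP–ENZ48 over VCaP parental (horizontal axis), for the 8 genes with a ratio: filled points with exact 95% intervals of the plain CPM ratio, and open symbols for G1 cells and for other scalings. The grey band holds the middle 50% of genes scaled by library total (-0.44 to 0.34) and dotted lines mark 2-fold. FOLH1 lies right of the band and STEAP1 left of it under each setting drawn, whereas STEAP2, CD276 and DLL3 cross 0.

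Set against VCaP–ENZ48, LNCaP–ENZ168 had 7 of the 9 members averaging at least 10 CPM over both libraries. STEAP2, ERBB2 and ERBB3 were past 2-fold higher, where 35.5% of all such genes were, and 0 were past 2-fold lower, where 11.1% were. ERBB2 and ERBB3 were below 10 CPM in VCaP–ENZ48 and reached that mean through LNCaP–ENZ168 alone, where they were high, so the count of 3 was partly fixed by the minimum. The log2 ratios were 1.59 for STEAP2, 3.24 for ERBB2 and 3.31 for ERBB3, beside a median of 0.65 over all 8854 genes. That of STEAP1 (0.98) was above 63.9% of genes, and that of FOLH1 (0.51) was below the median. CD276 and DLL3 had -0.086 and -0.24, with intervals that included 0. With TMM factors 17.6% of all genes were past 2-fold higher and 17.6% lower, and with median-of-ratios factors 17.2% and 18.0%. FOLH1 then had -0.024 and -0.043, so its order between these libraries depended on the scaling.

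The abundant members were detected in differing combinations among thinned cells, but whether cells differ in the members they express was not tested. At full depth FOLH1, STEAP1 and STEAP2 each had a UMI in 84.8% to 98.9% of cells, depending on the library. FOLH1 and STEAP1 were both detected in 28.8%, 35.3% and 61.9% of thinned VCaP parental, VCaP–ENZ48 and LNCaP–ENZ168 cells. The products of their separate shares were 26.4%, 33.4% and 61.5%. Among thinned cells, none of FOLH1, STEAP1 and STEAP2 was detected in 14.9% of VCaP parental (12.8 to 17.3%), 11.9% of VCaP–ENZ48 (9.86 to 14.2%) and 1.27% of LNCaP–ENZ168 cells (0.66 to 2.21%). All 3 were detected in 14.7% (12.6 to 17.1%), 17.8% (15.4 to 20.4%) and 51.8% (48.5 to 55.0%). The median cell held 2, 2 and 3 of the 9 genes, and no member was found in 12.7%, 10.4% and 0.848% of cells. In VCaP parental STEAP1 was detected in 71.8% of the 400 cells with a FOLH1 UMI and in 61.6% of the 597 without. In VCaP–ENZ48 these shares were 52.0% of 623 and 43.2% of 294. Over the 10 pairs of FOLH1, STEAP1, STEAP2, CD276 and DLL3, Spearman correlations across thinned cells lay between -0.051 and 0.15 in every library, which in counts this sparse is no finding.

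The genes whose counts ran most alike with a member were sought among those detected in at least 20% of thinned cells, again as a description over cells of 1 library that share its preparation. FOLH1 ran closest to RDH11, a retinol dehydrogenase, in VCaP parental (Spearman 0.16, 997 cells, 1423 genes compared), followed by DHRS7 and STEAP1. In VCaP–ENZ48 the closest were SPON2 (0.24), TMEM59 (0.24) and ACPP, prostatic acid phosphatase (0.23; 917 cells, 1166 genes). In LNCaP–ENZ168 they were SPINT2 (0.16), STEAP2 (0.15) and MANEA (0.14; 943 cells, 1712 genes). For STEAP1 the closest in VCaP parental were NPY (0.21), the kallikrein KLK2 (0.18) and ACPP (0.15), and KLK2 was also among the 3 closest in VCaP–ENZ48 (0.18), with MT-CYB and MT-CO1. STEAP2 ran closest to EID1 (0.15) in VCaP parental, ACPP (0.19) in VCaP–ENZ48 and MANEA (0.24) in LNCaP–ENZ168. All of these correlations were weak.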

How the data were processed

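Drop-seq libraries of LNCaP and VCaP cells were used, in which droplets join each cell to a barcoded bead. The authors aligned reads to GRCh38 with STAR and, with Drop-seq tools, Picard and Gencode annotation at default parameters, expected 1000 cells per sample. The study removed poor cells by genes, molecules and mitochondrial share, with thresholds given for its LNCaP and resistant 10x samples, and those for the libraries used here are not given in the sources used here. The deposited files hold raw UMI counts by gene and barcode. Barcodes with at least 300 genes, 500 UMIs and at most 25% mitochondrial UMIs were kept. Doublets were not removed. UMIs were summed per library and scaled to CPM, and ratios are log2 of CPM + 1. Poisson, Clopper-Pearson and conditional ratio intervals are exact at 95%. Phases were called by CellCycleScoring (Seurat 5.3.0) on thinned cells, and TMM factors came from edgeR 4.0.16. Python 3.11.15 and R 4.3.3 were used, and ratios were tested on simulated data. Coordinates are from Gencode 44. Of each gene list, the 3 genes with the highest mean VCaP CPM and every gene past 2-fold at a mean of at least 10 CPM were named; other genes are named for overlap, similarity or as values chosen after they were seen. The 9 genes and all lists were chosen with earlier results of these data known. Some listed genes are not reported here.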

Additional observations from a re-analysis of the deposited data

How the results depend on the processing

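No paired analysis was possible because there was 1 library a group, and for that reason no replicate could be left out. The log2 ratio of FOLH1 between the VCaP libraries (1.17) was 1.12 with at most 10% mitochondrial UMIs, 1.22 without barcodes above 3 times the median depth, 1.29 without mitochondrial and ribosomal protein genes, 0.84 in cells called G1, 0.88 with TMM and 0.72 with median-of-ratios factors. Thus the number of members past 2-fold higher fell from 2 to 0 in G1 cells and with both factors, and to 1 with a pseudocount of 5 CPM. It was 3, with PSCA added, for barcodes ending in a base, without mitochondrial and ribosomal protein genes, with equal weight per cell and with a pseudocount of 0.5 CPM. The number past 2-fold lower, 0 otherwise, became 1 (STEAP1) in G1 cells and with both factors. The sign turned for CD276 (-0.034 with TMM and -0.19 with median-of-ratios factors), STEAP2 (-0.022 and -0.18, and -0.089 in G1 cells), DLL3 (-0.23 and -0.38, -0.39 in G1 cells, -0.045 in cells of 10000 to 20000 UMIs and -0.053 with equal weight per cell) and, between LNCaP–ENZ168 and VCaP–ENZ48, FOLH1 (-0.024 and -0.043). The share of cells with FOLH1 depended on the thinning. It was 25.2%, 50.5% and 60.6% at 1000 UMIs and 62.8%, 86.4% and 94.8% at 4000 UMIs for VCaP parental, VCaP–ENZ48 and LNCaP–ENZ168, and the order was that at 2000 UMIs. Without thinning it was 93.7%, 93.9% and 97.4%, with VCaP intervals that overlapped, so no order is read there. In cells called G1 it was 49.7% in VCaP parental and 85.3% in LNCaP–ENZ168. In LNCaP–ENZ168 it was 84.6% with another seed and 84.5% with barcodes 1 base apart merged. In VCaP–ENZ48 it was 64.8% for barcodes ending in a base. The cause of these changes was not tested. The band of 10000 to 20000 UMIs per cell was used for the VCaP libraries only. PSCA, ERBB2 in VCaP and CEACAM5 are limited by their few UMIs.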
